A study of Mus musculus and Homo sapiens with 9 samples.

Results

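The transcripts of the cyclin-dependent kinase (CDK) inhibitors and of the retinoblastoma (RB) family were followed in cells with less IRF2BP2. They comprised 9 genes chosen by name, which were CDKN1A, CDKN1B and CDKN1C of the CIP/KIP family, CDKN2A, CDKN2C and CDKN2D of the INK4 family, and the pocket proteins RB1, RBL1 and RBL2. All 9 were found among the 64252 rows of the human table, and their mouse counterparts among the 43432 rows of the mouse table. J.gamma1, a Jurkat derivative from T-cell acute lymphoblastic leukemia (T-ALL) that lacks the signalling enzyme PLCG1, carried a lentiviral control hairpin (sh-NC, n = 2) or a hairpin against IRF2BP2 (sh-IRF2BP2, n = 2). The labels do not say which of the study's hairpins was sequenced, and both groups come from 1 cell line. CD3+ T cells, sorted with magnetic beads from mouse spleens, came from Vav-iCre+/-;Irf2bp2fl/fl knockout mice (n = 2) and from controls (n = 3), which the labels call wild type and the paper Vav-iCre-/-;Irf2bp2fl/fl. The floxed alleles were thus shared by both mouse groups in the paper's account. Vav-iCre acts throughout the blood lineage, so other blood cells of the knockout mice lose Irf2bp2 as well. An age of 6 weeks is given for mice used in flow cytometry, and none separately for the sequenced mice.

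Progress from G1 into S phase depends on the cyclin D kinases CDK4 and CDK6 and on the cyclin E kinase CDK2. INK4 proteins bind CDK4 and CDK6, whereas CIP/KIP proteins act on cyclin-bound CDKs, CDK2 above all. The kinases phosphorylate the pocket proteins, which otherwise hold E2F transcription factors in check, and RBL1 and RBL2 do so as part of the DREAM complex in resting cells. The level of p27, the protein of CDKN1B, is set largely by its degradation, and its transcript is another layer of control. Resting T cells are known for high p27 and RBL2.

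The promoters are shown because E2F can bind in some of them, including those of RB1 and RBL1. The letters TTTCGCGC, TTTGGCGC and TTCCCGC, forms of the E2F site of which none contains another, were looked for on both strands from 250 bases before to 50 bases after each start. Human starts were those of the canonical GENCODE 44 transcripts in hg38, and the mouse windows were those of RefSeq in mm10. Among the human members only RB1 and RBL1 held any of these words, and 9.93% of 20046 human windows did. In the mouse Rbl1, Cdkn2c and Cdkn2a held one, against 5.33% of 32851 windows. The searches are not alike, since each human gene had only its canonical start read. For CDKN2A this was chr9:21974808-21975107, and its other starts were not read. The Cdkn2a word lay in the window chr4:89294570-89294869, and the window chr4:89282143-89282442 of that gene held none. Rb1 and Cdkn1c had no entry among the mouse windows. The word TTTCGCGC of both RBL1 and Rbl1 was in 0.713% of human and 0.323% of mouse windows. The word TTTGGCGC was in 0.863% and 0.514%, and TTCCCGC was in 8.61% and 4.6%. A match describes letters and is no evidence of binding. The stretches follow 5′ to 3′ on the gene's strand, with the matched words in capitals.
RB1, hg38 chr13:48303701-48303750, plus strand: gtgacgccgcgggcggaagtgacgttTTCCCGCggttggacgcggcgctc
RBL1, hg38 chr20:37095998-37096049, minus strand: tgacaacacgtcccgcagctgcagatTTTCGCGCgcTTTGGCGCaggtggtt
Rbl1, mm10 chr2:157204535-157204578, minus strand: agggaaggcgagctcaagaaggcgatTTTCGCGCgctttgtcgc
Cdkn2c, mm10 chr4:109666757-109666807, minus strand: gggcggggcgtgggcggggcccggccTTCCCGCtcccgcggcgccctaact

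Total counts were 26648204 to 31120236 in the J.gamma1 libraries and 16668577 to 37177523 in the mouse libraries, of which control replicate 3 was the shallowest. After a filter on low counts, 15819 human and 15350 mouse genes were tested with edgeR's quasi-likelihood test. A gene was called where its p, adjusted by the Benjamini-Hochberg method over all genes tested, was under 0.05 and its log2 fold change reached 0.5 in size in J.gamma1 or 1 in the mouse. Levels are CPM, counts scaled to library sizes after TMM, or, between genes, TPM, which also divides by gene length. The targeted gene fell as labelled. IRF2BP2 was at 205 and 199 CPM with sh-NC and at 79.0 and 93.8 CPM with sh-IRF2BP2, and Irf2bp2 had 4145, 4594 and 1915 counts in the controls and 0 counts in both knockout libraries. The T cell markers CD3D, CD3E, CD3G, CD2 and LCK were detected in every human library, as were their mouse counterparts in every mouse library. Nothing in the labels says that replicates were separate cultures or animals, so the p-values measure the spread between these libraries, which may be technical.

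In J.gamma1 cells, knockdown of IRF2BP2 came with more CDKN1B and less RB1 transcript. CDKN1B doubled, with a fold of 2.002, and RB1 fell to 0.517 of its sh-NC level, while the other 6 members tested were not called. Thus 1 of the 8 tested members rose, against 5.46% of all genes tested, and 1 fell, against 5.01%. Without a test, 4 members lay above sh-NC in both knockdown libraries, as 29.6% of all genes tested did, and 3 lay below, as 28.7% did.

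**Figure D1:**
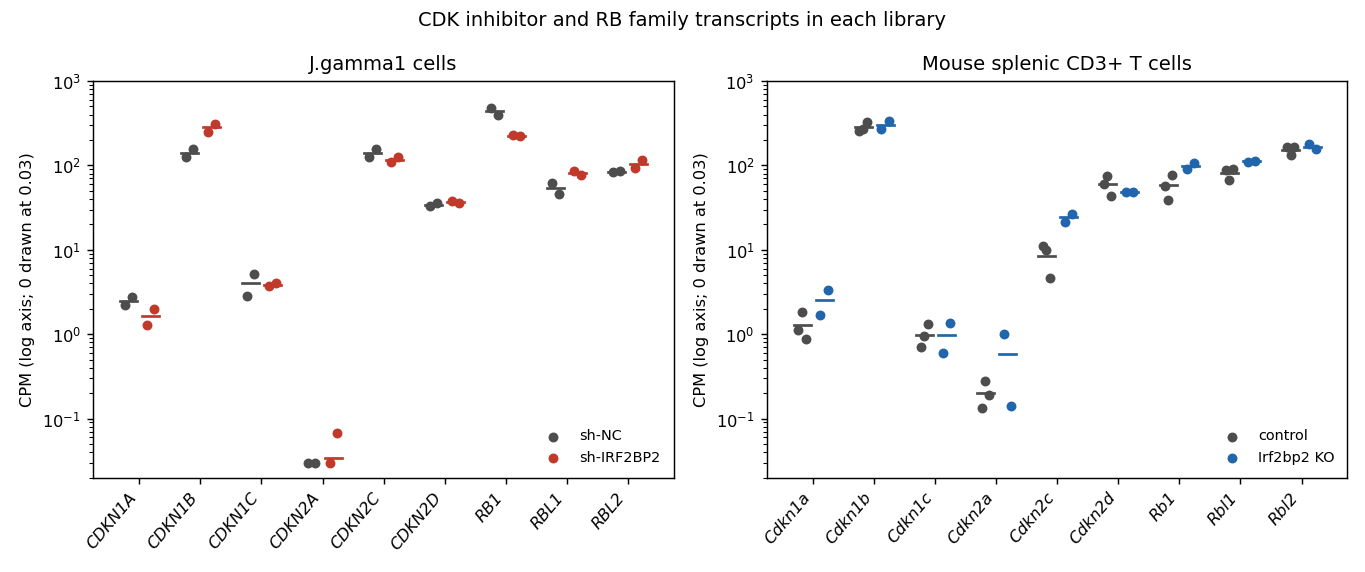
Level of each CDK inhibitor and RB family transcript in CPM (log axis) in the 4 J.gamma1 libraries (left) and the 5 mouse T cell libraries (right); points are libraries, bars are group means, and values of 0 are drawn at 0.03. CDKN1B lies higher and RB1 lower in both sh-IRF2BP2 libraries, and CDKN2A is at or near 0 in J.gamma1.

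Among the CIP/KIP genes, CDKN1B, which encodes p27, measured 127 and 155 CPM under sh-NC, against 251 and 313 CPM under sh-IRF2BP2. Both knockdown libraries were higher than both controls. The log2 fold change was 1.00 (95% interval 0.63 to 1.37, adjusted p = 0.0089 from edgeR). Relative to the change, the replicates were close, and CDKN1B was called in all 13 fits, with log2 fold changes between 0.83 and 1.15. Among the 13 were the main fit, the same fit read again without the fold threshold, and 4 that each left out 1 library. In those 4 fits 1 group is a single library, which is assumed to vary like the other group. CDKN1A, which encodes p21, a main target of the response to DNA damage, was scarce, at 2.201 and 2.74 CPM against 1.27 and 2.001 CPM. Its log2 fold change of -0.59 had an interval of -1.47 to 0.28 (adjusted p = 0.35), and both knockdown libraries were below both controls; a change of that size was not called with these 2 libraries a group. CDKN1C, which encodes p57, had 2.82 and 5.19 CPM with sh-NC and 3.71 and 4.003 CPM with sh-IRF2BP2. Its groups overlapped.

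Among the INK4 genes, CDKN2C, which encodes p18, was the most abundant per length. It measured 127 and 156 CPM with sh-NC and 108 and 124 CPM with sh-IRF2BP2. Both knockdown libraries were below both controls, but the difference of -0.28 on the log2 scale (interval -0.62 to 0.052, adjusted p = 0.25) was not called. CDKN2D, which encodes the INK4 protein p19, was at 32.8 and 35.4 CPM against 37.5 and 35.96 CPM, a log2 fold change of 0.11 (interval -0.19 to 0.40). CDKN2A, which encodes p16 and ARF, had 0, 0, 0 and 2 counts in the 4 libraries. It was not tested, and the upper limit of 3 counts behind a count of 0 equals 0.115 CPM in the shallowest library, for counting error only.

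Among the pocket proteins, RB1 measured 475 and 397 CPM with sh-NC and 228 and 223 CPM with sh-IRF2BP2. The lowest control was well above the highest knockdown library. The log2 fold change was -0.95 (95% interval -1.26 to -0.64, adjusted p = 0.0059 from edgeR), and RB1 was called in all 13 fits, between -1.08 and -0.82. RBL1, which encodes p107, went the other way, from 62.7 and 46.2 CPM to 86.0 and 77.6 CPM. Its groups did not overlap, and its log2 fold change was 0.59 (interval 0.22 to 0.96). The adjusted p of 0.055 from edgeR just missed the threshold, whereas DESeq2, which called 7.27% of the genes it tested higher, gave 0.011. RBL1 was called in 5 of 13 fits, among them that without sh-NC replicate 1 (log2 fold change 0.82). RBL2, which encodes p130, was at 83.8 and 85.1 CPM against 93.0 and 117 CPM. The groups did not overlap, but the log2 fold change of 0.32 (interval -0.0042 to 0.64, adjusted p = 0.19) was not called. RBL2 shares exon sequence with AKTIP on the other strand, and the sources used here do not say whether counting used the strand, so its level is uncertain. The same holds for RBL1, CDKN1A, CDKN2A and CDKN2C, each with a long non-coding RNA gene that shares exons on the other strand.

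**Figure D2:**
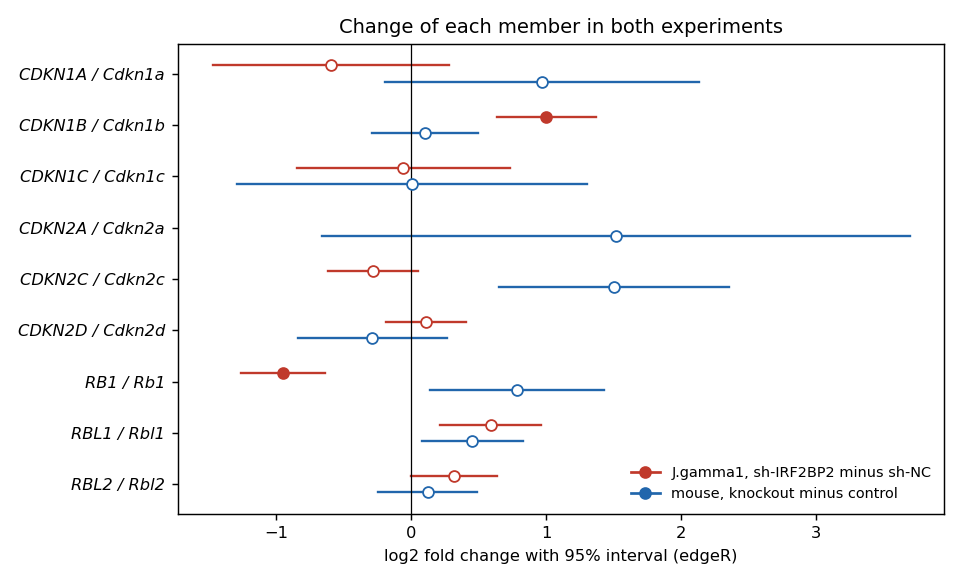
Log2 fold change of each member with its 95% interval (edgeR), for sh-IRF2BP2 minus sh-NC in J.gamma1 (red) and knockout minus control in mouse T cells (blue); filled points were called. CDKN1B at 1.00 and RB1 at -0.95 are the filled points, and CDKN2A has no red point because it was not tested in J.gamma1.

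Per length, RB1 was the main pocket protein transcript of J.gamma1 cells and became less dominant after knockdown. It made up 78.0% and 77.2% of the summed pocket protein TPM with sh-NC and 57.8% and 55.8% with sh-IRF2BP2. RBL1 took 11.1% and 9.71% before and 23.5% and 20.96% after, and RBL2 took 10.9% and 13.1% before and 18.7% and 23.3% after. The summed level was 358 and 315 TPM with sh-NC and 236 and 248 TPM with sh-IRF2BP2, so the total was lower in both knockdown libraries. RB1 kept the first place under 2 other length definitions, and RBL2 then exceeded RBL1 in every J.gamma1 library. No test was made of these shares, which depend on each other within a library. The INK4 sum was 241 and 297 TPM with sh-NC and 234 and 260 TPM with sh-IRF2BP2, and these ranges overlapped. The CIP/KIP sum was 58.9 and 77.7 TPM against 112 and 144 TPM, of which CDKN1B made up 84.8% to 93.7% in the 4 libraries.

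**Figure D3:**
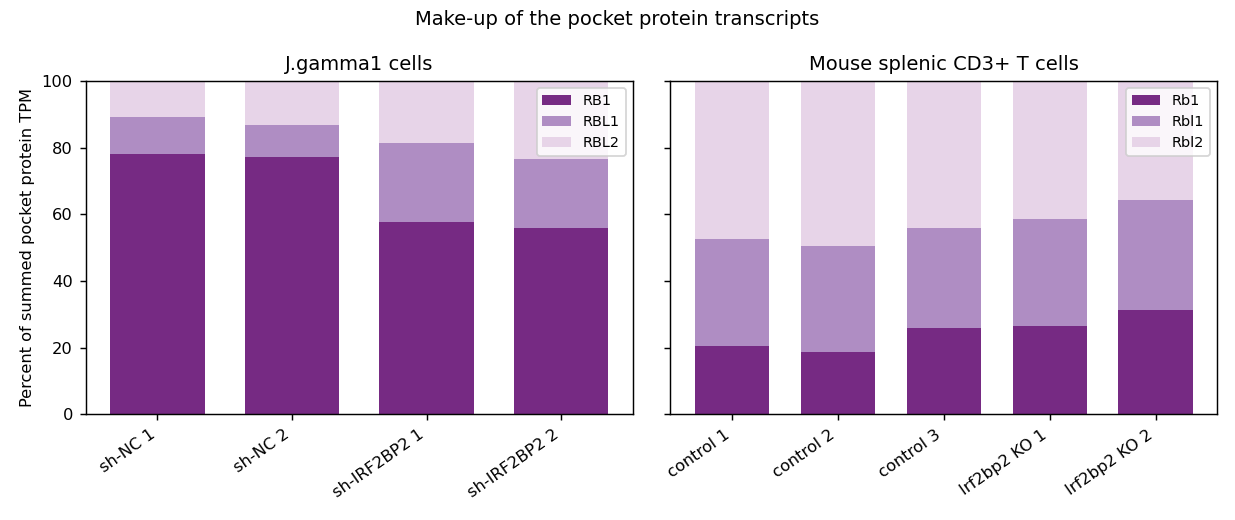
Share of each pocket protein transcript in the summed pocket protein TPM, in percent, for each J.gamma1 library (left) and each mouse T cell library (right); lengths are the summed exon lengths of each gene. The RB1 share falls from 78.0% and 77.2% with sh-NC to 57.8% and 55.8% with sh-IRF2BP2, and Rbl2 is the largest share in every mouse library.

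By TPM, the order in sh-NC cells was RB1 (261 ± 25.8, SD, n = 2), CDKN2C (182 ± 32.1), CDKN2D (87.6 ± 7.35), CDKN1B (58.8 ± 9.95), RBL2 (40.2 ± 1.59), RBL1 (35.2 ± 6.54), CDKN1C (6.28 ± 2.79) and CDKN1A (3.19 ± 0.582). The ranges of neighbours in this order overlapped only between RBL2 and RBL1. With sh-IRF2BP2, CDKN2C (152 ± 18.5), RB1 (138 ± 1.44) and CDKN1B (120 ± 21.7) came first. The library values of RB1 and CDKN2C then overlapped, and CDKN1B exceeded CDKN2D (95.7 ± 0.363). These orders are for summed exon lengths. With the longest coding transcript, CDKN1B came first under sh-IRF2BP2 (172 TPM, then RB1 at 125 and CDKN2C at 106), and with the median transcript length RB1 (361 TPM) and RBL2 (132 TPM) did, while RB1 stayed first under sh-NC with each length.

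The 3′ UTR of RB1 is shown because it holds a word that earlier results of these data had singled out, as letters that part of a hairpin might pair with. In the canonical transcript it spans 1819 bases, chr13:48480072-48481890 of hg38 on the plus strand, and the word GGTCTAA stands at position 1126 from its start. In capitals in chr13:48481186-48481214 it reads:
RB1, 3′ UTR: taagtcagtatGGTCTAAcactggcatgt
Of the 388 tested genes with GGTCTAA but not AGGTCTA in the 3′ UTR, 16.8% were called lower after knockdown, against 4.37% of 10535 genes without GGTCTA. Of 915 genes with GGTCTA in neither longer word, 8.96% were called lower, and UTR length was not matched between these classes. IRF2BP2 itself holds AGGTCTA in its 3′ UTR, and both GGTCTAA and AGGTCTA in its coding sequence. RB1 is among the 388, and the word was taken up after values of these libraries were seen, so this is a description. The other 7 tested members held no GGTCTA in the 3′ UTR, although RBL1 held AGGTCTA in its coding sequence. Among the list genes below, the called falls of RBBP4, FOXO4, MCM3 and PCNA and the called rises of CDK6 and MDM2 had GGTCTA in the 3′ UTR, alone or in a longer word, and those of CCNE2, E2F7, TFDP1, CD3D, FOXO1 and ZMAT3 did not. In the coding sequence TFDP1 held GGTCTAA, and CD3D, ZMAT3 and FOXO4 held AGGTCTA. Since the hairpin sequenced is not named, the part of GGTCTAA in the RB1 result was not tested.

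Over the 4 libraries, DYRK1B and JUN were the protein-coding genes of at least 10 CPM nearest to CDKN1B in centred log2 CPM, with root mean square distances of 0.043 and 0.044. DYRK1B is a kinase known to phosphorylate p27, and JUN is a subunit of AP-1. Nearest to RB1 were KRBOX5 (0.022), TUB (0.027) and DNAJC6 (0.038). Among 9416 candidates, 14 lay within 0.1 of CDKN1B and 49 within 0.1 of RB1. With 4 libraries in 2 groups, this likeness is mostly the size of the group difference.

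Some of the genes that act with the members were called. Over all genes tested, 5.46% were called higher and 5.01% lower, and no list was tested against these shares. Of 9 tested G1 cyclins and CDKs, 1 rose and 1 fell, with a median log2 fold change of -0.22 against 0.0067 over all genes tested. CDK6, the INK4-sensitive kinase, was at 1753 and 1133 CPM with sh-NC and at 3029 and 2585 CPM with sh-IRF2BP2 (log2 fold change 0.96, adjusted p = 0.032 from edgeR); its call was lost without sh-IRF2BP2 replicate 1. CCNE2, a cyclin E, fell from 72.2 ± 6.58 to 35.3 ± 3.30 CPM (SD, n = 2 each), and its change of -1.03 on the log2 scale had an adjusted p of 0.0041 from edgeR. CCND1, cyclin D1, was not tested, with mean levels of 0.116 and 0.119 CPM.

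Of 16 E2F and DREAM partners, 3 fell, with a median of -0.28. By edgeR 0 rose, with 1 higher at an unadjusted p under 0.05, and DESeq2 called 0 higher. RBBP4, a histone-binding subunit of DREAM, fell from 707 ± 4.57 to 315 ± 9.43 CPM (log2 fold change -1.17, adjusted p = 0.0022), and its 3′ UTR holds AGGTCTAA. TFDP1, the dimer partner of E2F, fell by 0.78 and E2F7, a repressive E2F, fell by 0.63 on the log2 scale. Without sh-IRF2BP2 replicate 2 the list held 1 called fall, and without sh-NC replicate 1 it also held 1 called rise. E2F1, an activating E2F, was at 79.2 CPM on average with sh-NC and 78.8 CPM with sh-IRF2BP2.

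Of 18 E2F targets, 16 had a log2 fold change below 0 and 2 were called lower, with a median of -0.30. By edgeR and by DESeq2 0 rose, also at an unadjusted p under 0.05, where 9 were lower. The sliding clamp PCNA fell by 1.02 and the replicative helicase subunit MCM3 fell by 0.61 on the log2 scale. Without either sh-IRF2BP2 library, 1 of the list was called. Among 9 genes of p27 turnover and FOXO, the transcription factor FOXO1 rose from 12.2 and 10.9 CPM to 30.9 and 24.5 CPM (log2 fold change 1.26, adjusted p = 0.0058 from edgeR). FOXO3 was not called, at 60.2 CPM on average with sh-NC and 64.4 CPM with sh-IRF2BP2. FOXO4, of the same family, fell by 0.88, but its call was lost without either sh-IRF2BP2 library. The median of these 9 was -0.010. The summed level of 5 cycling markers was 2427 and 2159 CPM with sh-NC and 2148 and 2239 CPM with sh-IRF2BP2, and by edgeR and DESeq2 0 of them were called, with 2 lower at an unadjusted p under 0.05. Of the 5 T cell markers, CD3D was called lower by edgeR (-0.79), but not without sh-IRF2BP2 replicate 1, and DESeq2 called 2 lower. CD2, at 4.76 CPM on average with sh-NC and 1.86 CPM with sh-IRF2BP2, was not called by edgeR. Its log2 fold change was -1.36 (adjusted p = 0.054 from edgeR). The median of the 5 was -0.17.

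Of 18 damage response genes, which include known neighbours of CDKN1A in that response, 2 rose, with a median of 0.18. By edgeR 0 fell, and 6 genes were higher and 1 lower at an unadjusted p under 0.05. DESeq2 called 4 higher and 1 lower. MDM2, a ubiquitin ligase, rose by 0.65 and ZMAT3, an RNA-binding protein, by 0.91 on the log2 scale. With sh-NC replicate 2 left out 4 genes rose, and with sh-IRF2BP2 replicate 1 left out 1 did. Without sh-NC replicate 1, 2 genes of the list were also called lower.

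**Figure D4:**
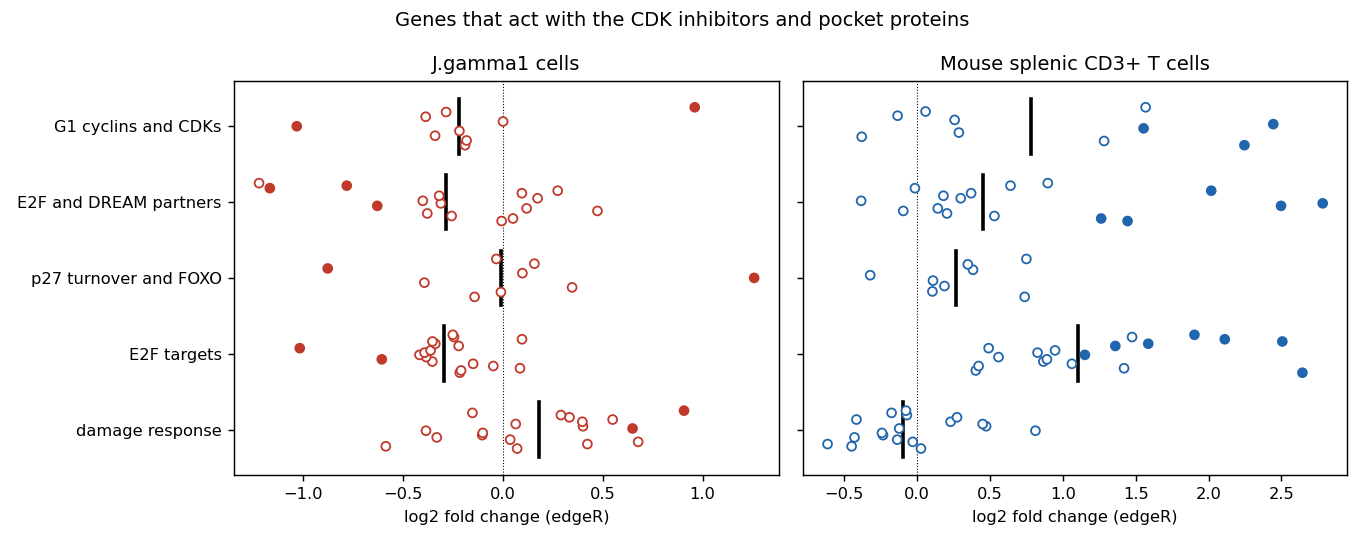
Log2 fold change of each tested gene of 5 lists in J.gamma1 (left) and mouse T cells (right); filled points were called, and black bars are list medians. The median of the E2F targets was -0.30 in J.gamma1 and 1.11 in the mouse.

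In mouse T cells no member was called. Of the 9 members tested, 0 rose, against 2.47% of all genes tested, and 0 fell, against 0.111%, by edgeR, with 3 at an unadjusted p under 0.05. Those 3 were Cdkn2c, Rb1 and Rbl1. The share of all genes tested under that p was not counted, here or for the lists, so such numbers are descriptions only. By DESeq2, which called 4.72% of genes higher, only Cdkn2c was called. The same 3 members lay above all controls in both knockout libraries, as 18.2% of all genes tested did, and no member lay below all controls, as 17.8% of genes did.

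Cdkn2c had 10.99, 9.82 and 4.63 CPM in the controls and 21.6 and 26.8 CPM in the knockout. Its log2 fold change was 1.502 (95% interval 0.65 to 2.35), with an adjusted p of 0.089 from edgeR and 0.0020 from DESeq2. The shallow control replicate 3 was the lowest, and without it the log2 fold change was 1.21 (adjusted p = 0.042 from edgeR). Without control replicate 1 or 2 the log2 fold change was 1.73 or 1.62 and was not called (adjusted p = 0.18 or 0.094 from edgeR). Without knockout replicate 1 or 2 it was 1.63 or 1.32. Cdkn2c was called in 2 of 14 fits. Cdkn2d had 60.1, 75.4 and 43.1 CPM in the controls and 48.5 and 49.1 CPM in the knockout, and the groups overlapped. Cdkn2a was nearly absent, with 5, 10 and 3 counts against 39 and 5 counts, so that 1 knockout library held most of them, and its log2 fold change of 1.52 had an interval of -0.66 to 3.70. Cdkn2c took 9.65%, 7.06% and 5.90% of the summed INK4 TPM in the controls and 20.3% and 24.2% in the knockout, while Cdkn2d stayed the main INK4 transcript.

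Rb1 had 56.6, 39.4 and 77.7 CPM in the controls and 91.0 and 108 CPM in the knockout, which gave a log2 fold change of 0.78 (interval 0.14 to 1.43, adjusted p = 0.22 from edgeR). The spread among the controls was wide, but none reached the knockout libraries. Rb1 shares exon sequence with Lpar6 and Rcbtb2 on the other strand, so its count is uncertain. Rbl1 had 88.4, 67.6 and 90.4 CPM against 111 and 114 CPM (log2 fold change 0.45, interval 0.077 to 0.83, adjusted p = 0.23). Rbl2, at 164, 132 and 167 CPM against 179 and 156 CPM, overlapped between the groups; it too shares exons with Aktip on the other strand.

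Of the CIP/KIP genes, Cdkn1b was abundant in every library, with 254, 273 and 324 CPM in the controls and 272 and 336 CPM in the knockout. The groups overlapped, and the log2 fold change of 0.10 had an interval of -0.29 to 0.49. Cdkn1b made up at least 97.9% of the summed CIP/KIP TPM in each library. Cdkn1a had 1.11, 1.83 and 0.876 CPM against 1.70 and 3.35 CPM, and Cdkn1c had between 0.601 and 1.35 CPM in all 5 libraries. Neither was called, and their wide intervals were -0.19 to 2.14 and -1.29 to 1.31. Both share exon sequence with a gene on the other strand, so their counts are uncertain as well.

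By TPM, the order in control T cells was Cdkn1b (173 ± 32.6, SD, n = 3), Cdkn2d (103 ± 21.7), Rbl2 (56.5 ± 10.3), Rbl1 (38.1 ± 7.95), Rb1 (26.97 ± 10.7), Cdkn2c (8.59 ± 3.15), Cdkn1c (1.35 ± 0.499), Cdkn1a (0.971 ± 0.318) and Cdkn2a (0.467 ± 0.148). Neighbours did not overlap in their library values from Cdkn1b to Rbl2 and between Rb1 and Cdkn2c, Cdkn2c and Cdkn1c, and Cdkn1a and Cdkn2a; Rbl2 and Rbl1 did not overlap either, by a narrow margin, while Rbl1 with Rb1 and Cdkn1c with Cdkn1a did. Rb1, first among the pocket proteins in J.gamma1, had the smallest share in the mouse, at 20.5%, 18.6% and 25.8% of pocket protein TPM in the controls and 26.4% and 31.2% in the knockout. These ranks rest on the length used. With the median transcript length, Rbl2 (172 TPM) and Rb1 (142 TPM) lay above Cdkn1b (119 TPM) and Cdkn2d (47.1 TPM) in the controls, and Rbl1 had the smallest pocket protein share.

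Genes of 3 of the 5 lists were called higher in part in the knockout, and genes of the other 2 were not called. Over all genes tested, 2.47% were called higher and 0.111% lower, and no list was tested against these shares. Of 10 G1 cyclins and CDKs, 3 rose, with a median log2 fold change of 0.78 against -0.018 over all genes tested. Ccne1 rose by 1.55, Ccne2 by 2.44 and Ccna2, the S phase cyclin, by 2.25. Of 16 E2F and DREAM partners 5 rose, which were E2f1, E2f2, E2f7, E2f8 and the DREAM-related Mybl2, with a median of 0.45 over the list. E2f8 was at 5.97, 11.4 and 6.13 CPM in the controls and at 46.7 and 62.0 CPM in the knockout, a difference of 2.78 on the log2 scale (adjusted p = 0.011 from edgeR). All 18 E2F targets had a log2 fold change above 0, with a median of 1.11, and 7 rose: Mcm5, Rrm1, Rrm2, Tk1, Cdc6, Pola1 and Uhrf1. The ribonucleotide reductase subunit Rrm1 was at 60.4 ± 3.74 CPM in controls (SD, n = 3) and at 182 ± 7.33 CPM in the knockout (n = 2). DESeq2 called 4 G1 cyclins and CDKs, 5 E2F and DREAM partners and 10 E2F targets higher, and 4.72% of all genes it tested. In these 3 lists edgeR and DESeq2 called 0 genes lower, also at an unadjusted p under 0.05. Of 8 p27 turnover and FOXO genes, 0 were called by edgeR or DESeq2, with 1 higher at an unadjusted p under 0.05, and without control replicate 2 1 was called higher. Of 18 damage response genes, 0 were called by edgeR or DESeq2, with 1 higher and 2 lower at an unadjusted p under 0.05, and without control replicate 3 1 was called lower.

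These calls rest on few libraries. Without control replicate 1, and without knockout replicate 2, none of the G1, E2F and DREAM or E2F target genes was called, and without knockout replicate 1 the 3 lists held 3 called genes, all E2F targets. Without control replicate 2 the called E2F targets numbered 11. Calls were lost over the whole table too, with 6 genes called higher without control replicate 1 against 379 in the main fit. The median log2 fold change of the E2F targets was 1.09 in that fit without control replicate 1. It was 1.15 without knockout replicate 1 and 1.02 without knockout replicate 2. Markers of other cells moved with the genes of these lists. The summed level of 8 erythroid markers (globins, Alas2, Klf1 and others, of 9 listed) was 574 to 2212 CPM in the controls and 3874 and 5557 CPM in the knockout, and 3 of the 8 were called, but 0 were without control replicate 1 or either knockout library. None was at 0 in any library, and DESeq2 called 5 of the 8 higher. The 5 cycling markers summed to 97.0 to 187 CPM in the controls and to 701 and 774 CPM in the knockout, and 2 were called, with 5 without control replicate 2, 1 without knockout replicate 1 and 0 without control replicate 1 or knockout replicate 2. DESeq2 called all 5 cycling markers higher. The 5 T cell markers were at 2447 to 2923 CPM against 1801 and 1947 CPM. By edgeR or DESeq2 0 of the T cell markers were called, with all 5 lower at an unadjusted p under 0.05. The 4 plasma cell markers summed to 397 to 1135 CPM against 1473 and 1119 CPM, ranges that overlapped. All 4 had a log2 fold change above 0 (median 1.05), and 1 of them, Prdm1, was called by edgeR (1.42) and 2 by DESeq2, with 0 called by edgeR without control replicate 1, control replicate 3 or either knockout library. The 5 B cell markers (25.5 to 216 against 77.0 and 24.3) and the 6 myeloid markers (29.8 to 325 against 101 and 56.8) overlapped between the groups. The part of these other cells in the values of Cdkn2c, Rb1, Rbl1 and the E2F genes was not tested, and in sorted bulk samples fewer cells of a type and less RNA per cell cannot be told apart.

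**Figure D5:**
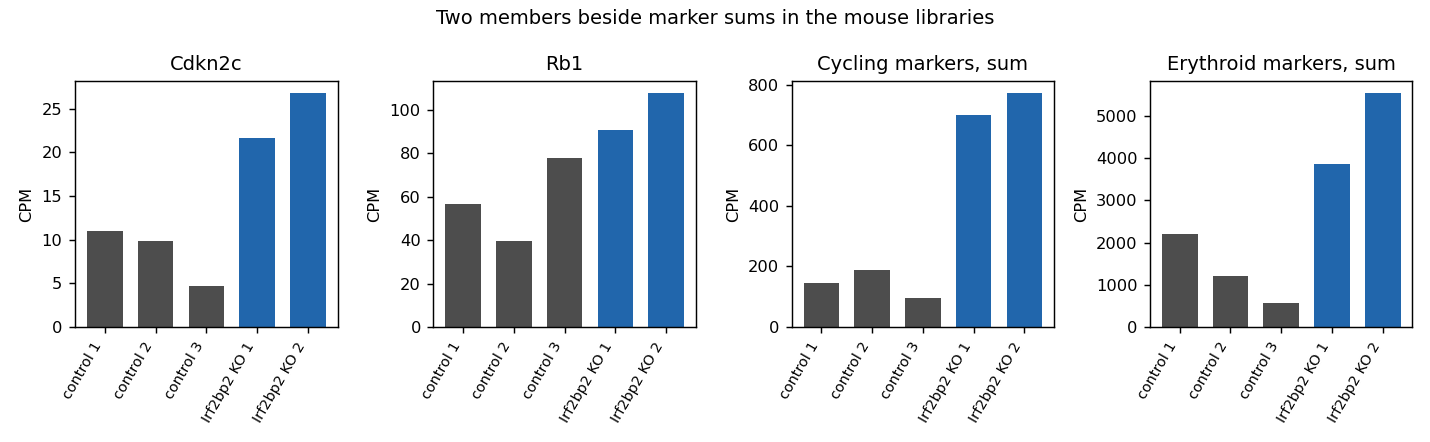
Level in CPM of Cdkn2c, Rb1, the summed cycling markers and the summed erythroid markers in each mouse library (grey, controls; blue, knockout). All 4 measures are higher in both knockout libraries than in the 3 controls, with Rb1 of control replicate 3 at 77.7 CPM the closest.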

How the data were processed

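RNA was sequenced from J.gamma1 cells and sorted mouse splenic CD3+ T cells as paired-end reads. Per the labels, the authors aligned reads with HISAT2 2.2.0 to hg38 or mm10 and used StringTie; the deposited values are raw counts, whole numbers for each Ensembl gene. How abundance became counts, and whether strand was used, is not given in the sources used here.

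Rows were matched to GENCODE 44 or M21 (97.9% of counts or more). Each table was fitted alone with edgeR 4.0.16 in R 4.3.3 (filterByExpr, TMM, glmQLFit, glmQLFTest), with the condition as sole term. TPM used summed exon lengths. Alternatives were DESeq2 1.42.0, other scalings, filters, rows, count scales and lengths, the replicate number as a block, and each library left out. The chi-square per gene between replicates was 20.2 or more, above sampling noise. Scripts were tested on simulated data.

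Members and lists were chosen with earlier results of these data known. Named are all members, the targeted gene, called genes of the lists, the 3 nearest genes to each called member, and others chosen after their values were seen. A few genes under this rule are left unreported.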

Additional observations from a re-analysis of the deposited data

Results flagged for a closer look

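For RB1 and CDKN2C the fold changes had opposite signs in the 2 experiments, with no overlap between the groups in either. Such separation was common: 28.7% of genes tested in J.gamma1 lay below sh-NC in both knockdown libraries, and 18.2% in the mouse lay above all controls in both knockout libraries. By edgeR RB1 in J.gamma1 was called, and the other 3 values were not. RB1 had a log2 fold change of -0.95 in J.gamma1 cells, below sh-NC in 2 of 2 knockdown libraries, and Rb1 of 0.78 in mouse T cells, above all 3 controls in 2 of 2 knockout libraries. CDKN2C had -0.28 in J.gamma1 cells and Cdkn2c 1.502 in mouse T cells. The difference was not tested, since species, cells and the way IRF2BP2 was lowered all differ between the experiments and cannot be told apart.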

How the results depend on the processing

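The calls of CDKN1B and RB1 held in all 13 J.gamma1 fits. Members called higher in J.gamma1 numbered 2 by DESeq2, with at least 10 counts in every library, with counts divided by 2 and with the replicate block, each time through RBL1, and 1 to 2 with a library left out. In the mouse they numbered 1 by DESeq2 and 0 to 1 with a library left out, through Cdkn2c. Leaving out 1 library turned the sign of uncalled members: CDKN1C to 0.45 without sh-NC replicate 2 (lowest -0.43), Cdkn1c to -0.19 without control replicate 1 and -0.72 without knockout replicate 2 (highest 0.45), Cdkn1b to -0.084 without knockout replicate 2 (highest 0.22), and Rbl2 to -0.0024 without knockout replicate 1 (highest 0.19). The causes were not tested. Other fits of members kept direction and call, 90 in J.gamma1 and 106 in the mouse, counting the main fit read again without the fold threshold. Over all genes in J.gamma1, 864 higher and 793 lower became 319 and 396 with any gene of at least 1 count, and 418 to 1608 and 419 to 1143 with a library left out. In the mouse, 379 and 17 became 755 and 72 by DESeq2, 407 and 35 with the block, and 6 to 532 and 1 to 35 with a library left out. The replicate block gave 1293 higher and 1174 lower genes in J.gamma1. Same-numbered J.gamma1 libraries deviated together (r = 0.34 over 9755 genes). With 2 libraries a group, the other pairs are bound to give -0.34, so this cannot show whether the numbers pair the samples. In the mouse r was 0.28 and -0.024 for the 2 pairs (9100 genes). The numbers were not taken to pair the samples in either experiment, and the block stayed an alternative. Levels per length depend on the length: RB1 in sh-NC cells was at 261 TPM, or 694 with the median and 233 with the longest coding transcript. CDKN1A, CDKN1C and CDKN2A had few counts in both species, and their part of the error from counting was not separated from that between replicates.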
